A study of Mus musculus with 6 samples.

Results

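Cpxm1, Gnmt, Edn2, Foxe1, Mfap2, Scrg1, Slc7a2 and Bgn were followed as a set of 8 genes out of the 32285 genes of the deposited count matrices. They were picked by symbol as genes that rise in the outer root sheath (ORS) of the growing hair follicle (HF), and that choice rested on measured levels in these same libraries. Their levels over time and across cell types are therefore given as a description, without a test. The comparison that was tested is the cycling state of the cells within each library. The genes and this test were themselves chosen with earlier results of these data known. The skin came from wildtype male FVB mice aged 55 to 57 days whose backs had been shaved and waxed (depilated), which removes the hair shafts and starts a new growth phase, anagen. Cells were taken right at the start (0 h), in the first day (4 h and 16 h) and on later days (2 d, 4 d, 6 d), with 1 library per time point made on the 10x Genomics Chromium 3′ system from the mixed cells of 2 mice that cannot be told apart. The 0 h library is the baseline for every ratio over time.

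Of 61031 barcodes, 50502 cells were kept, between 6520 and 11032 per library, with a median of 6020.5 to 10539 UMIs (unique molecular identifiers, counted RNA molecules) per cell. Of 60599 distinct barcode sequences, 430 occurred in more than 1 library. The 8 genes were described mainly in 6931 outer bulge and ORS cells, called OB cells here, of which 484 came from 0 h, 688 from 4 h, 804 from 16 h, 591 from 2 d, 2540 from 4 d and 1824 from 6 d. Levels are CPM, the UMIs of a gene in the summed cells per 1000000 UMIs of all genes in those cells, which was 2692375 at the smallest (0 h) and 16930212 at the largest (4 d). Brackets give exact Poisson 95% intervals for CPM and their ratios and exact binomial 95% intervals for shares of cells, and these cover counting error only, not the difference between mice. The Poisson intervals take each UMI as independent and also leave out the spread between cells.

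The bulge is the part of the follicle that holds its stem cells, and in anagen these cells and their progeny extend downwards as the ORS, the outermost epithelial layer around the growing hair. The inner root sheath (IRS) forms inside it, and the dermal papilla (DP) is the group of fibroblast-like cells at its base that signals to the epithelium. Of the 8 genes, 5 encode secreted or matrix proteins, namely the proteoglycan biglycan (Bgn), the microfibril component Mfap2, the carboxypeptidase-like protein Cpxm1, the peptide ligand endothelin-2 (Edn2) and the small secreted protein Scrg1. The others encode the forkhead transcription factor Foxe1, the enzyme glycine N-methyltransferase (Gnmt) and the cationic amino acid transporter Slc7a2.

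OB cells carried the bulge markers Krt15, between 4119 and 14547 CPM, and Sox9, between 469 and 912 CPM, in all 6 libraries. Cd34, a surface marker of the resting bulge, was at 586 CPM at 0 h and between 43.4 and 235 CPM at the later times. They fell into 6 clusters that are named here by a leading gene. The Sfrp1 cluster and the Col14a1 cluster matched ORS markers best, the Krt24 cluster and the Cpa4 cluster the markers of the outer bulge subset OB1, the Fgf18 cluster those of OB2 and the Aspn cluster those of OB3. The Col14a1 cluster had 969 cells at 4 d, 67 at 6 d and 0 before. It scored 2.722 for ORS, with an IRS list second at -0.477. In the first clustering, of all cells, its leading genes Tagln, Foxe1 and Basp1 led a cluster that matched IRS markers instead. That cluster had 1404 cells at 4 d, and its overlap with the Col14a1 cluster was not tested. The Sfrp1 cluster had 41, 52, 98, 259, 1029 and 822 cells in the order of time. It is the cluster with the ORS name that spans the whole course. Its match was close, with a marker score of 1.088 for ORS and 0.941 for OB1. Sfrp1 itself was lower there than in the Krt24 cluster at every time, at 42.2 and 459 CPM at 0 h and 1216 and 1642 at 6 d. Col14a1 had 2 UMIs in the Sfrp1 cluster at 0 h and 687 at 4 d. Whether the early and the later cells of this cluster are of the same type was not tested, so ratios within it may compare unlike cells. The Cpa4 cluster, 402 cells after 4 h and 275 after 16 h, scored 0.696 for OB1 and 0.691 for interfollicular basal cells, so values after 4 h and 16 h are also given without it where they moved.

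Promoters of 3 of the genes are shown, those of Cpxm1 and Bgn as examples with a GC box and that of Gnmt as one without. They are the 250 bases before the RefSeq start of each gene (GRCm38.p6), 5′ to 3′ on the strand of the gene, with capitals marking the GC-box letters GGGCGG, read on either strand. They lie at chr2:130397630-130397879 on the minus strand (Cpxm1), chr17:46729166-46729415 on the minus strand (Gnmt) and chrX:73483351-73483600 on the plus strand (Bgn).
Cpxm1: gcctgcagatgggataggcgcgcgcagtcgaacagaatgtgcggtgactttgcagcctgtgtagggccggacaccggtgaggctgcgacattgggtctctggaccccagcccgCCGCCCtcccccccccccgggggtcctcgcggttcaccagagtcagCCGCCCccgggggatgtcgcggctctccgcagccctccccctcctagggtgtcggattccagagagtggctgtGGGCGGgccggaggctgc
Gnmt: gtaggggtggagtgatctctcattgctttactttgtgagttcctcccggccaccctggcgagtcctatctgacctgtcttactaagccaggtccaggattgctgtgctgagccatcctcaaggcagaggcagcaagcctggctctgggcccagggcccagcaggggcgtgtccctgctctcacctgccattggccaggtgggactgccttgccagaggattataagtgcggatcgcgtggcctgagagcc
Bgn: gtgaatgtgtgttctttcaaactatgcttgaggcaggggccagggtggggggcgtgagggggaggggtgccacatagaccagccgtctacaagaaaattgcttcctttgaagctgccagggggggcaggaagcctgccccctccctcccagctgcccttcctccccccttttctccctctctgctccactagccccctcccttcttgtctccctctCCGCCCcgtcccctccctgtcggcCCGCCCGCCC
This motif occurred 3 times in the Cpxm1 window, 0 times in the Gnmt window and 3 times in the Bgn window, where 2 of the matches overlap. Over the 6 windows matched by symbol to 5 of the genes, Cpxm1, Gnmt, Edn2, Bgn and Mfap2, which has 2 starts, 3 held the motif, beside 32.7% of all 32851 windows. The other 5 motifs were searched on both strands and were in 0 of these 6 windows, beside 12.4% of all windows for the TATA box (TATAAA), 4.46% for an AP-1 site (TGACTCA), 3.21% for a TCF site (CTTTGAT), 3.02% for a SOX site (ACAATGG) and 3.92% for a GLI site (ACCACCC).

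In OB cells the 8 genes were between 0 (Cpxm1) and 19.3 CPM (Slc7a2) at 0 h, and 7 of them were at their highest at 4 d or 6 d. At 4 d, 5 of the 8 were at least 4-fold higher than at 0 h, where 6.86% of 12950 genes with at least 10 UMIs in either sum were. At 6 d it was 7 of 8, where 4.59% of 12494 genes were, and at 2 d it was Bgn alone, where 4.17% of 11212 genes were. After 4 h and after 16 h it was 0 of 8, beside 3.81% and 2.89% of genes. These counts describe the choice of the genes and support nothing further. Slc7a2 went against the description, since it was highest after 2 d and was lower after 6 d than at 0 h.

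**Figure D1:**
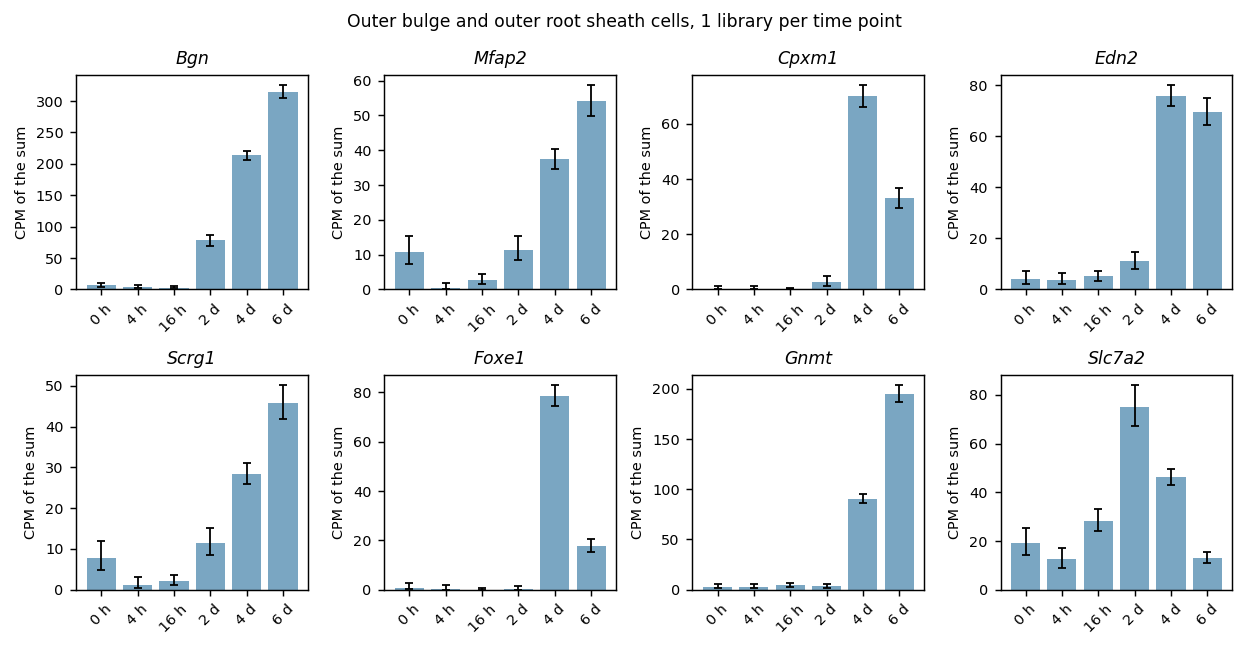
Level of each gene in OB cells by time post depilation. Bars give the CPM of the summed cells of 1 library and start at 0, and error bars give the exact Poisson 95% interval. Bgn, Mfap2, Scrg1 and Gnmt are highest after 6 d, Cpxm1, Edn2 and Foxe1 after 4 d and Slc7a2 after 2 d.

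Bgn encodes biglycan, a small leucine-rich proteoglycan of the extracellular matrix that binds collagen, and it lies at chrX:73483602-73495933 (mm10, plus strand). Its level in OB cells was 6.69 CPM at 0 h (3.96 to 10.6), 4.41 after 4 h, 2.93 after 16 h, 78.1 after 2 d (69.8 to 87.1), 213 after 4 d (207 to 221) and 315 after 6 d (304 to 326). Without the Cpa4 cluster the level at 4 h was 8.52. The first 3 libraries overlap in their intervals, though the ratio of 16 h to 0 h was 0.438 (0.212 to 0.901), from 17 UMIs against 18. This ratio rests in part on the Cpa4 cluster, which held 37.0% of OB UMIs at 16 h and had Bgn at 0.465 CPM there. Each of the last 3 libraries lies above every earlier one. The ratio to 0 h was 11.7 after 2 d (7.27 to 19.97), 31.9 after 4 d (20.2 to 53.9) and 47.1 after 6 d (29.8 to 79.6). After each cell was thinned to 2000 UMIs, so that shares can be set side by side, 1.67% of OB cells had a Bgn UMI at 0 h, 0.312% after 4 h, 0.628% after 16 h, 11.6% after 2 d, 32.3% after 4 d and 43.1% after 6 d. Without thinning the shares were 3.10% at 0 h and 67.1% at 6 d. Bgn was thus both more abundant in the sums and found in more cells.

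Mfap2 encodes a protein of the fibrillin-rich microfibrils of elastic fibres and lies at chr4:141010418-141015984 (plus strand). It was at 10.8 CPM at 0 h (7.21 to 15.5), 0.315 after 4 h, 2.76 after 16 h, 11.4 after 2 d (8.40 to 15.2), 37.4 after 4 d (34.6 to 40.5) and 54.1 after 6 d (49.8 to 58.8). The 2 d library did not differ from 0 h beyond the counting interval, with a ratio of 1.06 (0.655 to 1.75), and 4 d and 6 d lie above both. The ratio to 0 h was 0.0292 after 4 h (0.000716 to 0.176), from 1 UMI against 29, then 3.48 after 4 d (2.40 to 5.23) and 5.03 after 6 d (3.46 to 7.57).

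Cpxm1, at chr2:130390775-130397574 (minus strand), is a secreted member of the carboxypeptidase family. It had 0 UMIs at 0 h, 4 h and 16 h, 11 UMIs after 2 d (2.68 CPM, 1.34 to 4.79), 1187 after 4 d (70.1 CPM, 66.2 to 74.2) and 343 after 6 d (33.0 CPM, 29.6 to 36.7). A count of 0 at 0 h allows up to 1.11 CPM, taken as 3 UMIs of that library, and against this floor Cpxm1 was at least 62.9-fold higher after 4 d and at least 29.7-fold higher after 6 d. With the counting error of both libraries the lower 95% limits of these ratios were 51.1 and 23.99. No other gene of the set had 0 UMIs in all of the first 3 libraries.

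Edn2 encodes endothelin-2, a ligand of the endothelin receptors Ednra and Ednrb, and lies at chr4:120161206-120167360 (plus strand). Its level was 4.09 CPM at 0 h (2.04 to 7.31), 3.78 after 4 h, 5.17 after 16 h, 10.95 after 2 d (7.99 to 14.7), 75.9 after 4 d (71.8 to 80.2) and 69.5 after 6 d (64.6 to 74.8). The intervals of 4 d and 6 d overlap and lie above all others, and the ratio to 0 h was 18.6 at 4 d (10.3 to 37.3). Scrg1, which encodes a small secreted protein, lies at chr8:57455923-57477585 (plus strand) and was at 7.80 CPM at 0 h (4.83 to 11.9), 1.26 after 4 h, 2.07 after 16 h, 11.4 after 2 d, 28.4 after 4 d (25.9 to 31.1) and 45.9 after 6 d (41.8 to 50.2). Like Mfap2, Scrg1 was lower after 4 h than at 0 h, with a ratio of 0.161 (0.0403 to 0.479), before it was higher after 4 d (3.64, 2.36 to 5.94) and 6 d (5.88, 3.80 to 9.59).

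Foxe1 is a forkhead transcription factor that is known in skin as a target of hedgehog signalling, and it lies at chr4:46343609-46346412 (plus strand). It had 2 UMIs at 0 h (0.743 CPM), 1 after 4 h, 0 after 16 h and 1 after 2 d, then 1331 after 4 d (78.6 CPM, 74.4 to 83.0) and 183 after 6 d (17.6 CPM, 15.2 to 20.4). With 2 UMIs in the baseline, the ratio to 0 h is known only within wide limits, at 106 at 4 d (29.2 to 875) and 23.7 at 6 d (6.48 to 197). The drop from 4 d to 6 d is far outside the counting intervals. The gene Gm12446 overlaps Foxe1 on the other strand, Gm26904 overlaps Gnmt and Gm26584 overlaps Slc7a2, and whether the counting used the strand is not given in the sources used here.

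Gnmt encodes glycine N-methyltransferase, which moves a methyl group from S-adenosylmethionine to glycine, and lies at chr17:46725664-46729168 (minus strand). It was at 2.97 CPM at 0 h (1.28 to 5.85), 2.83 after 4 h, 4.31 after 16 h, 3.41 after 2 d, 90.4 after 4 d (85.96 to 95.1) and 195 after 6 d (187 to 204). The first 4 libraries do not differ beyond their intervals, so Gnmt was high later than Bgn, with ratios to 0 h of 30.4 at 4 d (15.4 to 70.6) and 65.6 at 6 d (33.3 to 152). Up to 41 Gnmt UMIs were counted in 1 cell at 6 d.

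Slc7a2 encodes a transporter of arginine and lysine and lies at chr8:40862396-40922308 (plus strand). It was at 19.3 CPM at 0 h (14.4 to 25.3), 12.6 after 4 h, 28.4 after 16 h, 75.2 after 2 d (67.0 to 84.1), 46.2 after 4 d (43.0 to 49.5) and 13.004 after 6 d (10.9 to 15.4). Without the Cpa4 cluster the level was 21.0 at 4 h and 41.3 at 16 h. The ratio to 0 h was 3.89 after 2 d (2.89 to 5.33), 2.39 after 4 d (1.81 to 3.23) and 0.673 after 6 d (0.486 to 0.946), and Slc7a2 stayed below 4-fold at every time.

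The share of thinned OB cells with a UMI followed the levels. At 0 h it was at most 2.51% for any of the 8 genes (Mfap2). At 4 d it was 11.1% for Cpxm1, 12.9% for Edn2, 10.0% for Foxe1, 12.4% for Gnmt, 7.51% for Mfap2, 5.66% for Scrg1 and 8.05% for Slc7a2. At 6 d it was 4.96%, 10.4%, 2.20%, 16.9%, 9.92%, 8.51% and 2.20% for the same genes in that order. T cells, which should lack these genes and show how much free RNA is in the droplets, had a UMI in at most 0.939% of thinned cells (Slc7a2, 4 h) and in at most 0.621% for the other 7, at a median depth of 2024 to 2764 UMIs against 4418.5 to 6583 in OB cells. Shares below these, such as those of Foxe1 from 0 h to 2 d, are read as background. The share of thinned OB cells with UMIs of at least 2 of the 8 genes was 1.05% at 0 h, 0.312% after 4 h, 0.628% after 16 h, 4.74% after 2 d, 28.1% after 4 d and 26.4% after 6 d, and no cell had more than 5.

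The makeup of the OB cells moved with time, and the levels within clusters show how the genes differ. The Sfrp1 cluster held 10.6% of OB UMIs at 0 h, 57.9% after 2 d, 38.4% after 4 d and 46.1% after 6 d. The Krt24 cluster held 58.4% at 0 h, 2.998% after 4 d and 19.8% after 6 d, and the Col14a1 cluster 49.0% after 4 d and 5.80% after 6 d. All 8 genes were kept out of the clustering, yet Scrg1, Mfap2, Gnmt, Edn2 and Slc7a2 were among the 10 leading genes of the Sfrp1 cluster and Foxe1 of the Col14a1 cluster.

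**Figure D2:**
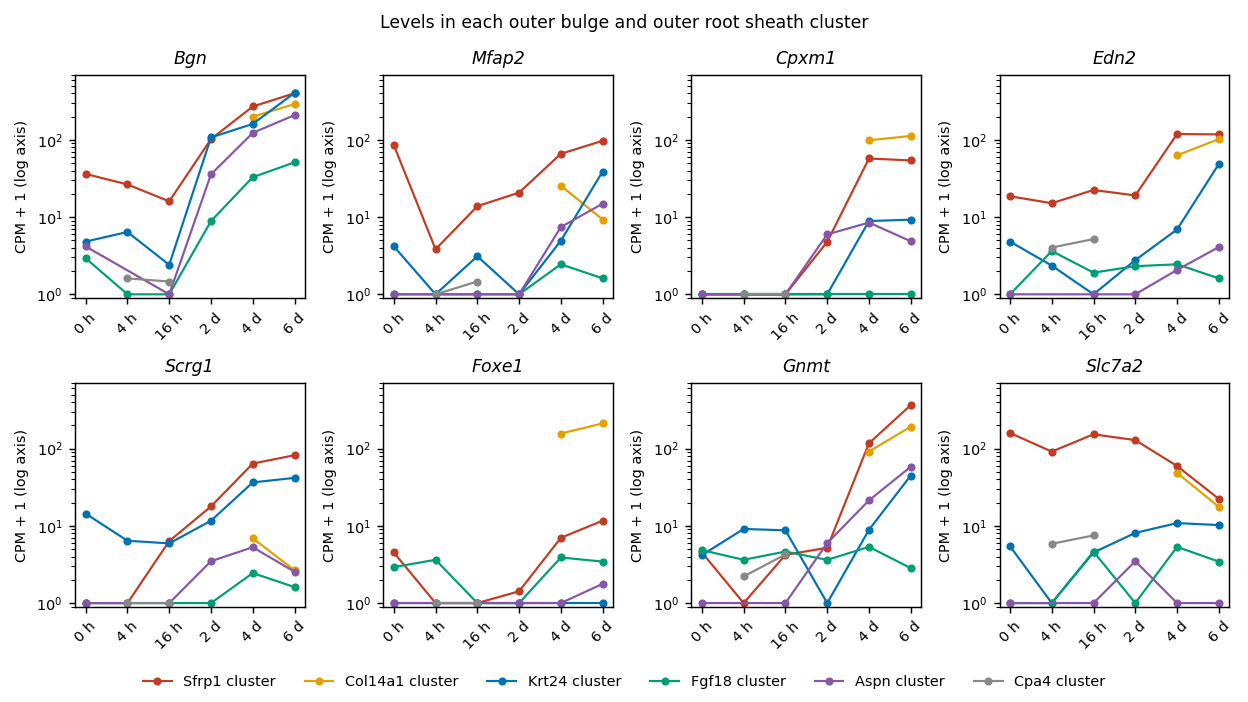
Level of each gene within the 6 clusters of OB cells. The log axis gives CPM + 1 in the summed cells of 1 cluster and library, with 1 line per cluster and a point only where the cluster had at least 20 cells. Foxe1 is high in the Col14a1 cluster, and Slc7a2 in the Sfrp1 cluster goes from 158 CPM at 0 h to 21.3 at 6 d.

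Bgn was higher at 6 d than at 0 h in every cluster present at both times. In the Sfrp1 cluster it was at 35.1 CPM at 0 h, 25.4 after 4 h, 14.98 after 16 h, 101 after 2 d, 269 after 4 d and 399 after 6 d, with a ratio of 11.4 after 6 d (6.17 to 23.7). In the Krt24 cluster the ratio was 106 at 6 d (48.4 to 289), from 3.82 to 404 CPM. The Fgf18 cluster reached 50.1 CPM and the Aspn cluster 208 CPM at 6 d, each from 1 UMI at 0 h, with ratios of 26.02 (4.54 to 1040) and 65.7 (11.7 to 2603). With the clusters of 4 d and 6 d weighted by their share of UMIs at 0 h, Bgn was at 142 and 312 CPM, 21.2-fold and 46.7-fold over 0 h.

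Gnmt, Edn2, Scrg1 and Cpxm1 were also higher within clusters. In the Sfrp1 cluster Gnmt was at 3.51 CPM at 0 h, from 1 UMI, and at 116 after 4 d and 364 after 6 d. Edn2 there was between 14.1 and 21.4 CPM up to 2 d and at 118 and 117 at 4 d and 6 d, a ratio of 6.71 (2.86 to 20.7) at 4 d. Scrg1 had 0 UMIs there at 0 h, where that count allows up to 10.5 CPM, and was at 62.9 and 81.1 CPM at 4 d and 6 d. Cpxm1 was at 3.78 CPM after 2 d, 56.3 after 4 d and 53.1 after 6 d in this cluster, and at 97.6 and 111 in the Col14a1 cluster. These 4 genes were low in the Fgf18 cluster, at or below 4.34 CPM at every time. In the Krt24 cluster Scrg1 was at 13.4 CPM at 0 h and 40.8 at 6 d, a ratio of 3.05 (1.87 to 5.19), while Gnmt and Edn2 went from 3.18 and 3.82 to 43.7 and 47.6 CPM.

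Mfap2 in the Sfrp1 cluster, Slc7a2 and Foxe1 differed from this. Mfap2 in the Sfrp1 cluster was at 84.4 CPM at 0 h, from 24 UMIs in 17 of 41 cells, 2.83 after 4 h, 12.8 after 16 h, 19.7 after 2 d, 64.9 after 4 d and 96.1 after 6 d. The ratio of 4 d to 0 h within this cluster was 0.770 (0.510 to 1.22) and that of 6 d was 1.14 (0.756 to 1.80), so the later levels did not differ from 0 h beyond counting error, and at the 0 h makeup Mfap2 was at 10.2 CPM at 4 d (0.947-fold over 0 h) and 34.0 at 6 d (3.16-fold). In the Krt24 cluster, in contrast, Mfap2 was at 3.18 CPM at 0 h and 37.9 at 6 d, a ratio of 11.9 (4.89 to 37.7). Slc7a2 in the Sfrp1 cluster was at 158 CPM at 0 h, 90.4 after 4 h, 152 after 16 h, 128 after 2 d, 58.5 after 4 d and 21.3 after 6 d, so that it was lower after 4 d (0.370, 0.271 to 0.515) and after 6 d (0.135, 0.0940 to 0.196) than at 0 h. At the 0 h makeup Slc7a2 was at 12.8 CPM at 4 d and 8.11 at 6 d, both below the 19.3 of 0 h. Its higher level at 2 d and 4 d in all OB cells was not seen within the Sfrp1 cluster, which was larger at those times than at 0 h. At 4 d the Col14a1 cluster, with 49.0% of OB UMIs, had Slc7a2 at 47.5 CPM. The part of the cluster makeup in the level of Slc7a2 was not tested.

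Foxe1 was at 155 CPM at 4 d and 211 at 6 d in the Col14a1 cluster and at 6.00 and 10.7 in the Sfrp1 cluster. Without the Col14a1 cluster, the Foxe1 level in OB cells was 4.75 at 4 d and 5.73 at 6 d, and clustering at a resolution of 0.5 gave 25.4 and 7.54. The Krt24 cluster had 0 Foxe1 UMIs in all 6 libraries. Without the Col14a1 cluster, 7 of the 8 genes were at least 4-fold higher at 4 d and 7 at 6 d, beside 5.86% and 4.27% of all genes, where 5 and 7 were with it. In the Sfrp1 cluster alone it was 5 at each time, beside 5.19% and 4.06%, and in the Krt24 cluster alone 2 at 4 d and 5 at 6 d, beside 1.24% and 2.89%. Of the 2 at 4 d, Cpxm1 had 4 UMIs against 0, fewer than the 10 that the share over all genes asks for.

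Across the whole skin, OB cells had the highest level of Gnmt, Edn2, Scrg1 and Bgn among classes with at least 20 cells, DP and fibroblast cells that of Cpxm1 and Mfap2, and the IRS2 class that of Foxe1 and Slc7a2. OB cells held 63.2% (Foxe1) to 92.7% (Scrg1) of the UMIs of each gene in all kept cells at 4 d and 62.5% (Foxe1) to 97.1% (Scrg1) at 6 d, while they were 23.02% and 20.1% of the cells. At 0 h, with 7.42% of cells, they held 95.5% of Scrg1 and 93.5% of Mfap2 UMIs and 1.62% of Edn2 UMIs.

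**Figure D3:**
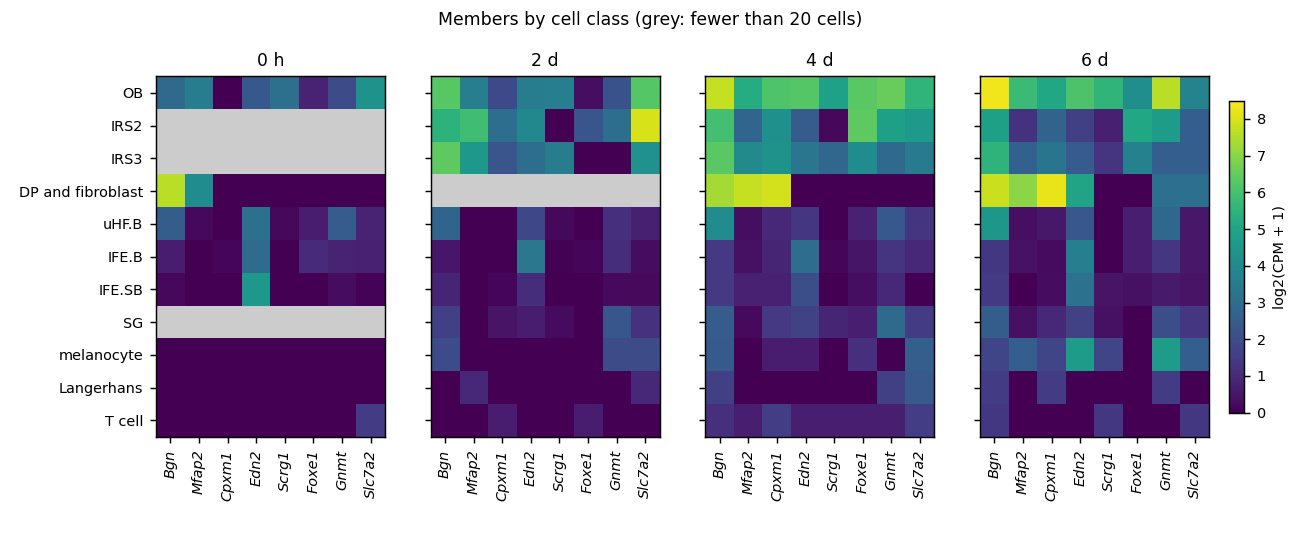
Level of each gene by cell class in 4 of the 6 libraries. Colour gives log2(CPM + 1) in the summed cells of a class in 1 library, and grey marks classes with fewer than 20 cells there. At 4 d and 6 d Gnmt, Edn2, Scrg1 and Bgn are brightest in OB cells, Cpxm1 and Mfap2 in DP and fibroblast cells and Foxe1 in IRS2.

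Cpxm1 in DP and fibroblast cells was at 0 CPM at 0 h (20 cells), 243 after 4 d (198 to 295, 113 cells) and 294 after 6 d (209 to 401, 26 cells), above the 70.1 and 33.0 CPM of OB cells. Mfap2 in the same cells was at 16.4, 217 (175 to 266) and 128 CPM (74.6 to 205) at these times, also above OB cells at 4 d and 6 d. Bgn there was high at all 3 times, at 197, 164 and 226 CPM. The 20 cells of 0 h held 60978 UMIs of all genes, so the 0 h levels of this class rest on few counts. The summed level of 6 fibroblast markers in OB cells was 6.89 to 30.8 CPM, against 321 to 2080 in the DP and fibroblast class, and in OB cells Dpt was at 0 throughout while Lum, Pdgfra and Col3a1 were at 0 from 0 h to 2 d. Col1a1 was found in OB cells of every library, at 8.54 CPM at 0 h, 1.21 after 16 h and 11.8 after 6 d, and Dcn, which is also an IRS2 marker here, at up to 19.5 CPM after 2 d. The part of fibroblast RNA in the OB levels was not tested beyond these values.

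In IRS2 cells, which carry keratins of the IRS and hair and were not found before 2 d, Foxe1 was at 83.1 CPM at 4 d (76.9 to 89.6), an interval that overlaps that of OB cells at 78.6, and at 32.9 at 6 d, above OB cells. Slc7a2 in IRS2 cells was at 254 CPM after 2 d (197 to 321, from 22 cells), 23.2 after 4 d and 4.80 after 6 d. Gnmt was at 27.7 and 24.7 CPM and Bgn at 61.6 and 27.4 at 4 d and 6 d, each below OB cells. In the IRS3 class, led by Penk and Wfdc18, Bgn was at 82.1, 78.4 and 45.3 CPM at 2 d, 4 d and 6 d and Foxe1 at 16.4 and 12.2 at 4 d and 6 d. Basal cells of the upper follicle had at most 21.4 CPM of any of the 8 genes (Bgn, 6 d).

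Edn2 had the smallest share of its UMIs in OB cells at 0 h of the genes found there, the 1.62% given above. Suprabasal cells of the interfollicular epidermis had 22.4 CPM of Edn2 at 0 h and 1.17 to 8.03 at the later times, and basal cells 2.46 to 11.7 CPM across the 6 libraries. At 4 d and 6 d the 75.9 and 69.5 CPM of OB cells were well above these.

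Over 79 sums of library and cell class, the pattern of each gene was set beside that of 13985 other genes by Pearson's r of log2(CPM + 1), as a description. The sums share libraries and depth, so r has no p. Col14a1, a fibril-associated collagen, was nearest to Cpxm1 (r = 0.89) and to Mfap2 (0.82), and Col5a1, another collagen gene, was nearest to Bgn (0.86), followed by the hedgehog effectors Gli1 (0.83) and Gli2 (0.81). Foxe1 was nearest to Gm12446 (0.86), which overlaps it, and then to Dlx1 (0.77) and Sct (0.76). Scrg1 was nearest to Nkain3 (0.83), Lypd6 (0.76) and the stem cell receptor Lgr5 (0.69), Slc7a2 to Mtmr7 (0.82), Atp6v1b1 (0.82) and Fras1 (0.75), Gnmt to the monocarboxylate transporter Slc16a7 (0.73), and Edn2 to Myzap (0.65). Hsd11b2, which inactivates glucocorticoids, was the second for both Cpxm1 (0.83) and Gnmt (0.68). Among the 8 genes themselves r ran from 0.31 (Foxe1 and Scrg1) to 0.80 (Mfap2 and Bgn).

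Genes of the same pathways were set beside the 8, by the same 4-fold limit between 4 d and 0 h in OB cells. Of all genes, 6.86% were at least 4-fold higher and 4.09% at least 4-fold lower, and the median log2 fold was 0.31. These sums pool all OB clusters. The Krt24 cluster, with Ltbp2 among its leading genes, held 58.4% of OB UMIs at 0 h and 2.998% at 4 d. The Col14a1 cluster, with Col14a1, Col4a1 and Basp1 among its leading genes, held 49.0% at 4 d. The part of this makeup in the folds was not tested. Of the hedgehog genes, the receptor gene Ptch1 (27.1 to 280 CPM) and the effector Gli1 (8.91 to 58.5) were at least 4-fold higher, and Smo, which transmits the signal, was at 44.2 and 101. A list of 5 ORS genes was chosen on these samples and is not independent evidence of its direction, and 4 of its genes were higher with a median of 3.60, with Col14a1 at 0.743 and 229 CPM, Basp1 at 5.94 and 314, Lap3 at 72.8 and 883 and Col4a1 at 25.6 and 182.

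Few relatives of Edn2, Bgn, Mfap2 and Cpxm1 were measured, and Mfap2 itself was below the 4-fold limit at 4 d. Of 3 endothelin genes measured 0 were higher and 1 was lower (median -0.21), with the receptor Ednra at 18.2 and 1.71 CPM, Edn1 at 6.31 and 17.9 and the converting enzyme Ece1 at 103 and 89.4, and Ednrb had 0 UMIs at 0 h. Of 3 small leucine-rich proteoglycans 0 were higher and 1 was lower (median 1.05), Aspn at 134 and 7.15 CPM. Of 5 microfibril genes 0 were higher and 1 was lower (median -0.59), Ltbp2 at 75.8 and 4.37 CPM, while Ltbp4, Ltbp1 and Ltbp3, which also bind latent TGF-beta, were at 48.1, 35.6 and 69.7 CPM at 4 d and 76.1, 25.6 and 72.1 at 0 h. Of 5 carboxypeptidase genes 0 were higher and 1 was lower (median 0.25), Cpm at 4.09 and 0.177 CPM, which was named after its values were seen, while Cpe was at 63.1 and 39.0, Cpd at 37.1 and 52.3 and Aebp1 at 20.4 and 27.2.

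For Gnmt, 2 of 10 genes of S-adenosylmethionine and glycine use were at least 4-fold higher and 0 lower (median 1.07). They were Shmt1, which makes glycine from serine (15.6 to 62.5 CPM), and Pemt (0.371 to 5.79), named after its values were seen, and Sardh, which breaks down the sarcosine that Gnmt makes, was at 19.7 and 48.8, Shmt2 at 15.2 and 42.8 and Gamt at 26.7 and 20.3. For Slc7a2, 2 of 8 genes of cationic amino acid transport and arginine use were higher and 1 lower (median -0.37), with the related transporter Slc7a1 at 5.57 and 39.7 CPM, the arginases Arg2 at 3.34 and 14.1 and Arg1 at 22.7 and 0.236, and Odc1 at 105 and 34.4. For Foxe1, 1 of 7 forkhead genes was higher and 1 lower (median -0.96), with the cell cycle factor Foxm1 at 0 and 18.4 CPM, Foxp1 at 495 and 105, Foxc1 at 103 and 39.3 and Foxo3 at 31.2 and 16.0.

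Cycling and non-cycling OB cells were then compared within libraries. A cell was called cycling with at least 2 UMIs of 10 proliferation markers after thinning to 2000 UMIs, which gave 41 of 478 cells at 0 h (8.58%), 14 of 640 after 4 h (2.19%), 99 of 796 after 16 h (12.4%), 163 of 570 after 2 d (28.6%), 1169 of 2422 after 4 d (48.3%) and 362 of 1775 after 6 d (20.4%). UMIs were summed per library and state, and the 12 sums were fitted across all genes by edgeR's quasi-likelihood test with the library as block and Benjamini-Hochberg adjustment. Cycling cells were deeper, with a median of 9683 against 4771 UMIs after 2 d, 7609 against 5070 after 4 d and 6499 against 4803 after 6 d, and the part of depth in the differences was not tested beyond the thinning. The p-values measure the spread between these 6 libraries, each of which mixes 2 mice. Of 11308 genes tested, 2376 (21.0%) passed an adjusted p of 0.05, 9.63% higher and 11.4% lower in cycling cells, and 2 of the 8 genes did, a share close to that of all genes.

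Foxe1 was higher in cycling OB cells by 1.72 on the log2 scale (SE 0.27, edgeR adjusted p = 0.000155), at 103 against 45.9 CPM at 4 d (ratio 2.24, 1.97 to 2.55) and 47.4 against 7.12 at 6 d (6.66, 4.81 to 9.33). It had 0 UMIs in the cycling cells of the other 4 libraries. The Col14a1 cluster made up 57.4% of the cycling and 21.9% of the non-cycling cells at 4 d, and 13.5% and 1.27% at 6 d. Within that cluster Foxe1 was at 160 and 144 CPM at 4 d (1.11, 0.978 to 1.27) and at 220 and 182 at 6 d (1.205, 0.777 to 1.93), so that neither library showed a difference there beyond counting error. The call was lost in the Sfrp1 cluster alone, with a log2 difference of 0.72 and an edgeR adjusted p of 0.184, and with a limit of 3 UMIs for cycling cells (log2 1.67, SE 0.54, edgeR adjusted p = 0.118), where the difference was about as large and its error larger.

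Scrg1 was lower in cycling cells by a log2 difference of -0.85 (SE 0.25, edgeR adjusted p = 0.0192). Its levels in cycling and non-cycling cells were 13.9 and 7.30 CPM at 0 h, 6.96 and 1.22 after 16 h, 7.20 and 14.98 after 2 d, 17.1 and 44.8 after 4 d and 33.8 and 49.9 after 6 d, and it had 0 UMIs in the 14 cycling cells of 4 h. It was thus lower in cycling cells in each of the last 3 libraries, beyond counting error, and higher at 16 h, from 6 UMIs in each state. The call did not hold without the 4 d library (log2 -0.44, edgeR adjusted p = 0.430) or without the 6 d library (log2 -0.92, edgeR adjusted p = 0.116), nor by DESeq2 (adjusted p = 0.887). In the Sfrp1 cluster alone it did, at log2 -1.16 (SE 0.16, edgeR adjusted p = 5.83e-06), with 39.7 against 87.7 CPM at 4 d and 52.5 against 95.8 at 6 d.

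**Figure D4:**
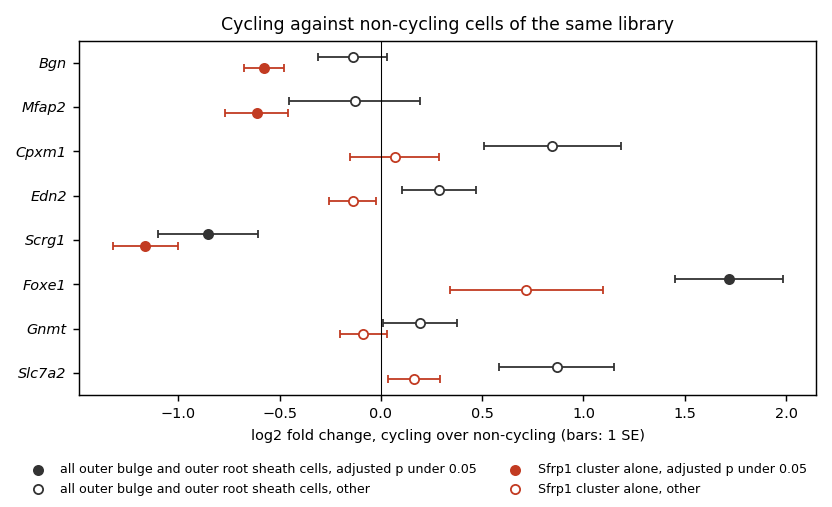
Difference between cycling and non-cycling cells of the same library for each gene. The x axis gives the log2 fold change from edgeR, with bars of 1 SE, in all OB cells (black) and in the Sfrp1 cluster alone (red), and filled points have an adjusted p under 0.05. In all OB cells Foxe1 lies at 1.72 and Scrg1 at -0.85, and in the Sfrp1 cluster Scrg1, Mfap2 and Bgn lie below 0 with filled points.

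The other 6 genes did not pass in all OB cells. The log2 difference was 0.87 for Slc7a2 (SE 0.28, edgeR adjusted p = 0.0545), 0.85 for Cpxm1 (SE 0.34, edgeR adjusted p = 0.127), 0.29 for Edn2 (SE 0.18), 0.19 for Gnmt (SE 0.18), -0.14 for Bgn (SE 0.17) and -0.13 for Mfap2 (SE 0.32). Slc7a2 was at 71.97 CPM in cycling and 20.9 in non-cycling cells after 16 h and at 121 and 40.1 after 2 d, but at 46.8 and 45.5 after 4 d. The Sfrp1 cluster made up 79.8% of the cycling and 31.4% of the non-cycling cells at 2 d, and within it Slc7a2 was at 141 and 103 CPM (1.36, 1.06 to 1.77). Cpxm1 was at 6.09 and 0 CPM after 2 d, 76.0 and 63.2 after 4 d and 59.9 and 23.5 after 6 d.

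In the Sfrp1 cluster alone, which leaves the mix of clusters out and had enough cycling cells in 4 libraries, 2388 of 10089 genes (23.7%) passed, and 3 of the 8 did, each lower in cycling cells. Beside Scrg1, these were the matrix genes Bgn, with a log2 difference of -0.58 (SE 0.10, edgeR adjusted p = 6.99e-05), and Mfap2, with -0.61 (SE 0.15, edgeR adjusted p = 0.00506), beside 12.2% of all genes tested that were lower. Bgn in this cluster was at 78.9 CPM in cycling and 143 in non-cycling cells after 2 d, 229 and 308 after 4 d and 322 and 442 after 6 d. As counts, Bgn had 122 UMIs in 130 cycling and 119 in 128 non-cycling cells after 2 d. These were 756 in 435 and 970 in 561 after 4 d, and 534 in 222 and 1366 in 573 after 6 d. Cycling cells of this cluster were deeper, at a median of 11343.5 against 6028.5 UMIs after 2 d. The medians were 7019 against 5466 after 4 d and 6527.5 against 4882 after 6 d. CPM is a share of all UMIs, and the part of depth in the lower CPM was not tested. Mfap2 was at 47.3 and 81.3 CPM after 4 d and 71.8 and 107 after 6 d, but at 23.3 and 13.2 after 2 d (1.76, 0.877 to 3.84). Gnmt, Edn2, Cpxm1 and Slc7a2 had log2 differences between -0.14 and 0.16 there, with SEs of 0.11 to 0.22. In the Col14a1 cluster, which was present in 2 libraries and was not tested, the 4 d level of Gnmt was at 76.0 CPM in cycling and 130 in non-cycling cells (0.583, 0.501 to 0.679), Edn2 at 56.5 and 76.6 (0.737, 0.610 to 0.894) and Bgn at 187 and 233 (0.7998, 0.719 to 0.891). At 6 d the ratios there were 0.628 (0.421 to 0.953), 0.263 (0.153 to 0.449) and 0.708 (0.509 to 0.997) for the same genes.

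The levels over time were also set out within each state. In non-cycling OB cells alone, 7 of the 8 genes were at least 4-fold higher after 4 d than at 0 h and 7 after 6 d, beside 5.43% and 3.28% of all genes. Bgn was at 6.89 CPM at 0 h, 79.3 after 2 d, 235 after 4 d and 329 after 6 d in these cells and Gnmt at 2.84, 3.96, 98.8 and 167, while Slc7a2 was at 20.3, 40.1, 45.5 and 10.1. In cycling cells alone, of which 0 h had 41, it was 6 at 4 d and 4 at 6 d, beside 5.69% and 4.51%. Each of the 8 genes had at most 3 UMIs in the cycling cells of 0 h, so these folds rest on few counts. Bgn was at 4.64 CPM at 0 h, 198 after 4 d and 280.4 after 6 d in cycling cells and Gnmt at 4.64, 84.95 and 277. Scrg1 was at 13.9 CPM at 0 h (2.87 to 40.7) and 17.1 after 4 d (14.6 to 19.9), which overlap. Slc7a2, from 2 UMIs at 0 h, was among the 6 genes of 4 d, and Mfap2 and Scrg1 were not.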

How the data were processed

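The deposited files held raw UMI counts per gene and barcode that the authors made with Cell Ranger 6.1.2 on mm10, and nothing was normalised before deposit. Whether the counting used strand is not given in the sources used here. Barcodes with 500 to 7000 genes and at most 10% mitochondrial UMIs were kept, which left 55177, and 4675 predicted doublets were then removed, at a rate of 0.8% per 1000 barcodes, as those with the largest share of simulated doublets among their neighbours. Library totals ran from 72634390 to 112370376 UMIs. Cells were clustered with scanpy 1.11.5 and leidenalg 0.10.2 (2000 variable genes, 30 components, 20 neighbours within and 10 mutual neighbours between libraries, resolution 1), first all cells and then the 19762 HF cells, so clusters may differ from those of the study, which integrated the libraries in another way. The 8 genes, the pathway genes and cell cycle genes, 517 in all, were kept out of the clustering. Clusters took the name of the marker list with the highest score.

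Folds over time used the sums per library and, where a sum had 0 UMIs, a floor of 3 UMIs. Cycling state was tested with edgeR 4.0.16 in R 4.3.3 (TMM, filterByExpr, robust quasi-likelihood fit), with the library as block because both sums of a pair came from 1 library, and the 10 cycling markers were left out. The fit was tested on simulated data. The alternatives were other normalisation (DESeq2 1.42.0), filters, cycling limits, clustering, doublet treatment and libraries left out. Levels over time by single clusters, without the Cpa4 or the Col14a1 cluster and at the makeup of 0 h, and the cycling test without the Cpa4 cluster, were added after the data had been seen, while the cycling test in the largest OB cluster was planned. The members, the lists and the tests were chosen with earlier results of these data known. Named genes were the 8 members, the 3 genes with the highest r for each and at most 4 genes per list with the largest fold among those at 10 CPM or more at 0 h or 4 d. The full count of the hedgehog list is not reported here.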

Additional observations from a re-analysis of the deposited data

Results flagged for a closer look

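For 4 of the 8 genes, cycling and non-cycling OB cells differed in opposite directions in different libraries, each beyond its counting interval. The ratio of cycling to non-cycling CPM was 0.860 at 4 d and 1.66 at 6 d for Gnmt. For Edn2 it was 2.28 after 2 d, 0.881 after 4 d and 1.39 after 6 d. For Mfap2 it was 4.11 at 2 d and 0.593 at 4 d. For Scrg1 it was 5.72 at 16 h, from 6 UMIs in each state, while the 3 later libraries gave 0.481 (2 d), 0.383 (4 d) and 0.677 (6 d). The counting intervals take each UMI as independent, while up to 21 Gnmt UMIs at 4 d and 41 at 6 d were counted in 1 cell. Whether these ratios, some of them near 1, exceed the spread between cells was not tested. The difference between libraries was not tested, since each time point has 1 library. The share of the Sfrp1 and Col14a1 clusters in the cycling and non-cycling cells differed between these libraries too. Within the Sfrp1 cluster the ratio was 0.879 (0.760 to 1.02) at 4 d and 1.13 (1.02 to 1.24) at 6 d for Gnmt, and 1.00 (0.519 to 2.02) at 2 d, 0.853 (0.738 to 0.986) at 4 d and 1.10 (0.920 to 1.31) at 6 d for Edn2.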

How the results depend on the processing

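The count of genes that differed between cycling and non-cycling OB cells, 2376 by edgeR, was 1559 by DESeq2, 875 with at least 1 UMI of the cycling markers, 1187 without thinning and 89 with no replicate block. With no block 6 of the 8 genes were tested, and Foxe1 and Cpxm1 were not. Over the libraries left out the count ran from 1232 (without 6 d) to 2777 (without 16 h), with 1329 without 4 d. The cycling call of Foxe1 did not hold with at least 3 UMIs (log2 1.67 against 1.72, SE 0.54, edgeR adjusted p = 0.118) or in the Sfrp1 cluster alone, and that of Scrg1 not by DESeq2 (adjusted p = 0.887), with no replicate block (0.938), with at least 1 UMI (0.216), without thinning (0.20), without 4 d or without 6 d. Slc7a2 passed with no filter on low counts, without 0 h, without 4 d, without thinning, at a resolution of 0.5 and with doublets kept, Cpxm1 with no filter, without 2 d, without 4 d and without thinning, and Bgn at a resolution of 0.5. The log2 difference changed sign for Gnmt without 6 d (-0.21), with at least 3 UMIs (-0.025) and in the Sfrp1 cluster (-0.087), for Edn2 in that cluster (-0.14), for Mfap2 by DESeq2 (0.26), with no replicate block (0.14), without 4 d (0.33) and without thinning (0.20), and for Bgn without thinning (0.18), and none of these 9 values passed the test. Without each library in turn, the log2 difference ran from -0.21 to 0.44 for Gnmt and from -0.43 to 0.33 for Mfap2. Of 20 counts of genes at least 4-fold higher over time, 1 moved by over 1.5 times, that of cycling cells at 6 d (4). Of 480 levels of the 8 genes under 10 alternatives, 347 stayed within their counting interval. Depth limits the first 3 libraries, where several genes had under 10 UMIs, and 1 library per time point leaves the spread between mice unknown. The cause of the changes was not tested.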

Other observations

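In the cycling comparison the pathway lists of the 8 genes moved unequally, beside 9.63% of all genes higher, 11.4% lower and a median log2 difference of -0.04. These values pool all OB clusters, whose mix differed between the states, with the Col14a1 cluster at 57.4% of cycling and 21.9% of non-cycling cells at 4 d. Col14a1 and Col4a1 are leading genes of that cluster, Ltbp2 of the Krt24 cluster and Fbn2 of the Aspn cluster. The part of the cluster mix in these differences was not tested. Of the hedgehog genes, Gli1 and Ptch1 were higher in cycling cells, with log2 differences by edgeR of 0.48 and 0.97. Microfibril genes were lower in 3 of 5 and higher in 0 (median -0.65), namely Fbn2 (-1.01), Ltbp2 (-1.34) and Ltbp4 (-0.65). Of 6 forkhead genes, 1 was higher, the cell cycle factor Foxm1 (4.34), and 4 were lower, Foxc1 (-1.13), Foxo3 (-0.63), Foxp1 (-0.64) and Foxq1 (-1.09) (median -0.63). Of 9 genes of S-adenosylmethionine and glycine use, 2 were higher, Shmt2 (0.69) and Pemt (1.07), and 0 lower (median 0.31). Of 8 genes of arginine use and transport, Arg2 (1.41), Ass1 (0.94) and Odc1 (0.41) were higher and Slc7a6 (-0.68) was lower (median 0.24). The endothelin receptor gene Ednra was lower (-1.91) and was the only 1 of 3 endothelin genes to pass (median -0.24). Of 3 carboxypeptidase genes Aebp1 was higher (0.87) and Cpe lower (-0.53), with a median of 0.03, and 0 of 2 small leucine-rich proteoglycans passed (median 0.41). Of the 5 ORS genes chosen on these samples, Col14a1 (1.33) and Col4a1 (1.36) were higher and 0 lower (median 1.16). Fbn2, Foxq1, Pemt, Ass1 and Slc7a6 are named after their values were seen.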
